A study of Mus musculus with 28 samples.

Results

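Tibialis anterior (TA) muscle of *Bin1* mck-/- mice that had received tamoxifen was compared with TA muscle of WT mice that had received placebo, by RNA sequencing. The question this comparison addresses is which transcripts are still away from the WT level after treatment. Mice were assigned to the groups by their labels. These are the 4 tamoxifen-treated *Bin1* mck-/- mice (mice 1 to 4) and the 4 placebo WT mice (mice 5 to 8) of the *Bin1* cohort, 8 of the 28 mice of the series. *Bin1* mck-/- mice lack *Bin1* in skeletal muscle through a Cre recombinase driven by the promoter of the muscle creatine kinase gene, so other cell types of the tissue keep the gene. Mice were of the C57BL/6N strain and 8 weeks old, and the labels do not give their sex. Of 4 Y-linked genes looked up, 3 had 0 reads in all mice of the cohort. The same cohort holds 4 *Bin1* mck-/- mice on placebo, called untreated *Bin1* mck-/- mice below. A second cohort with other mice holds *Dnm2* S619L/+ mice (heterozygous for a point mutation of *Dnm2*) and WT mice, each on placebo or tamoxifen. WT mice on tamoxifen exist in the *Dnm2* cohort only. Genotype and drug therefore change together between treated *Bin1* mck-/- and WT mice, and this comparison alone cannot tell their effects apart. Untreated *Bin1* mck-/- mice show the deletion without the drug. The effect of the drug in WT muscle cannot be seen in this cohort.

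*Bin1* encodes amphiphysin 2, a protein that bends membranes and is needed to form T-tubules, the inward folds of the muscle cell membrane that carry the electrical signal to the calcium store. Loss of BIN1, or mutations of *DNM2* and *MTM1*, which encode a membrane-cutting GTPase and a phosphoinositide phosphatase, cause centronuclear myopathy, in which nuclei lie in the centre of weak muscle fibers. Tamoxifen binds the estrogen receptor and blocks or activates it depending on the tissue.

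The libraries held 24671835 to 30538990 reads on genes in treated *Bin1* mck-/- mice, 30776801 to 35136327 in WT and 29063032 to 33654116 in untreated *Bin1* mck-/- mice. All 12 libraries of the cohort started from 350 ng of RNA, fragmented for 8 min. In treated mouse 1, 6.91% of all counts lay outside genes, against 3.64% to 4.10% in treated mice 2 to 4. Treated mouse 2 alone held transcripts of bone, described with the cell types. Levels are given as CPM, a gene's reads scaled to a fixed total of reads on genes, with library sizes adjusted by TMM. A whole muscle is a mixture of cell types, so fewer cells of a type and less RNA per cell cannot be told apart. The labels name separate mice and nothing further on litter or day, so the p-values measure the spread between these mice.

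Of 14841 genes tested, 126 differed between treated *Bin1* mck-/- and WT mice at an adjusted p under 0.05 (0.849% of the genes tested; edgeR's quasi-likelihood test with Benjamini-Hochberg adjustment). These are named as called genes. There were 69 higher and 57 lower in treated mice, and 46 of the higher and 23 of the lower genes changed by more than 2-fold. The 4 treated and the 4 WT mice did not overlap in any of the 126. This adds no support, since these genes were selected by a small p. Genes that were not called, such as *Sln* and *Ank1*, did not overlap either. An unadjusted p under 0.05 was reached by 2205 genes, and the median log2 fold change over all genes was 0.03. The count depended on single mice. It fell to 42, 44, 53 and 51 without WT mice 5, 6, 7 and 8, and to 48 without treated mouse 4. It rose to 266 without treated mouse 3, and DESeq2 called 519 genes. None of the 126 genes changed sign under any of the 20 alternatives, and 26 of them (15 higher, 11 lower) were called under all 20. The plot of called genes by setting shows these counts.

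**Figure D1:**
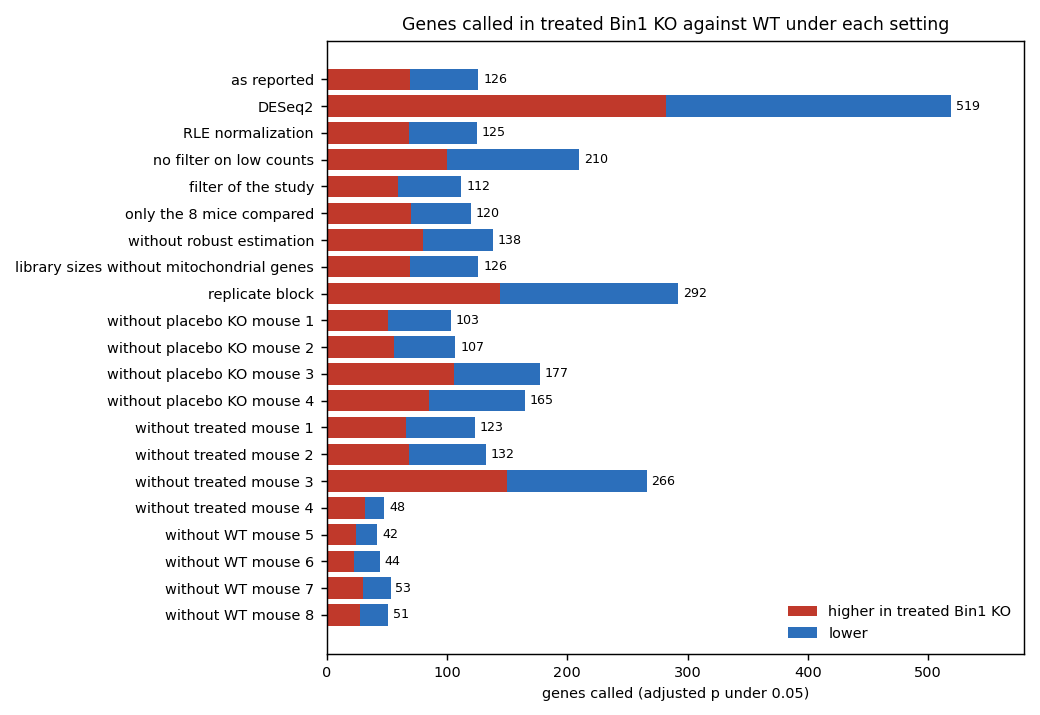
Number of genes called (x axis) between treated Bin1 mck-/- and WT mice in the reported fit and under each alternative, with genes higher in treated mice in red and lower genes in blue. The reported fit calls 126 genes, and the counts run from 42 without WT mouse 5 to 519 by DESeq2.

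*Bin1* (ENSMUSG00000024381) was first looked at in every mouse, since it checks the genotype labels. It had 41.3, 36.1, 49.5 and 36.9 CPM in treated *Bin1* mck-/- mice 1 to 4, against 549, 521, 533 and 556 CPM in WT mice 5 to 8 (the order of mice in all lists of values). No treated mouse came near a WT mouse, and the labels of all 8 mice fit the level of the gene. Its log2 fold change was −3.72 (SE 0.13, adjusted p = 1.38e-10). Untreated *Bin1* mck-/- mice, which share the WT mice with this comparison, had 51.6 to 62.1 CPM. *Gm44577* (ENSMUSG00000109232), a gene model next to *Bin1* on the same strand, went the other way. It had 8.11, 4.49, 6.75 and 7.24 CPM in treated mice and 0.0839, 0.0348, 0.352 and 0.181 in WT, with 5.86 to 9.38 CPM in untreated *Bin1* mck-/- mice. Its log2 fold change was 4.88 (SE 0.37, adjusted p = 6.28e-06). WT mice held 3, 1, 11 and 6 reads of it, so the size of the change is uncertain. *Gm44577* passed the filter on low counts through *Bin1* mck-/- mice alone. Counts per gene do not say whether the reads of *Gm44577* belong to a transcript of the altered *Bin1* locus, and this was not tested. The other genes of centronuclear myopathy were not called. *Mtm1* had a log2 fold change of 0.18 (SE 0.16, adjusted p = 0.642) and *Dnm2* of −0.08 (SE 0.10, adjusted p = 0.786). For *Ryr1*, the calcium release channel, it was −0.25 (SE 0.19, adjusted p = 0.586), and for *Ttn*, which encodes titin, 0.20 (SE 0.17, adjusted p = 0.624).

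**Figure D2:**
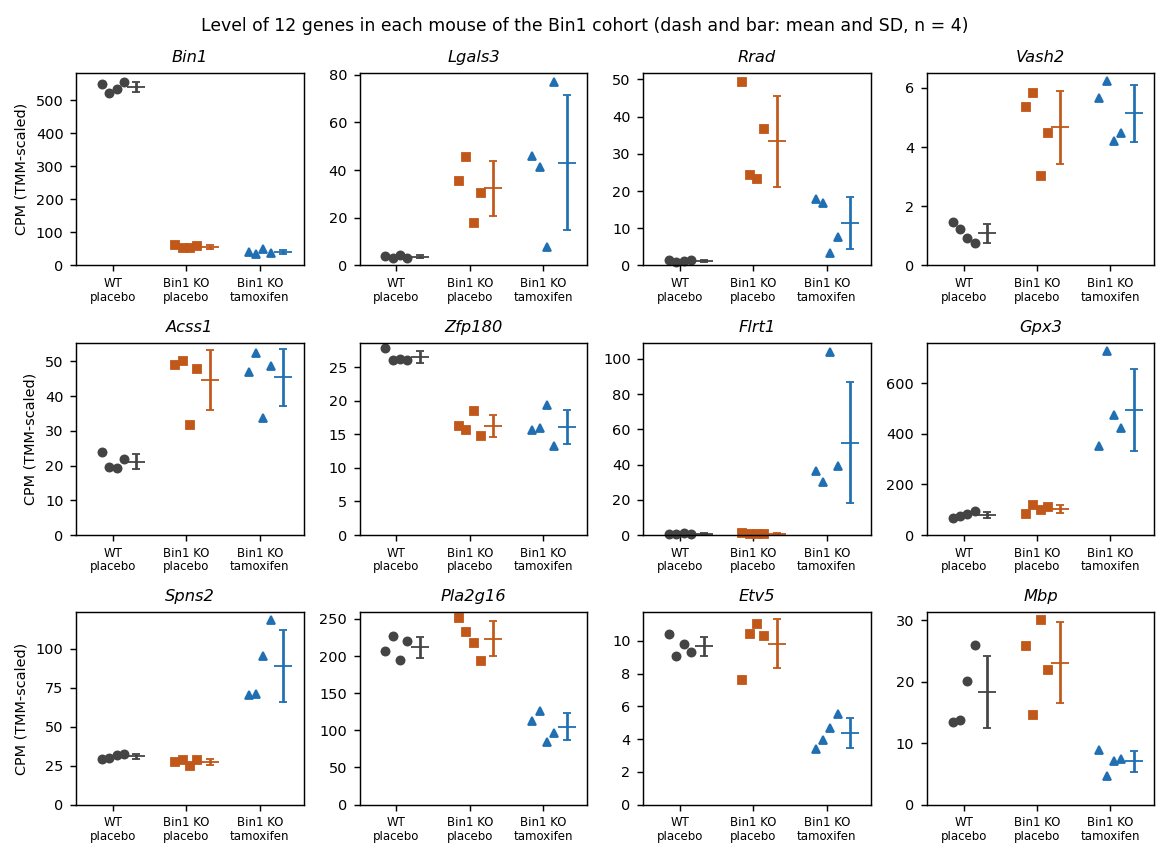
Level of 12 genes (y axis, CPM scaled by TMM, starting at 0) in each mouse of the Bin1 cohort by group, with the mean and SD of the 4 mice beside the points. In Lgals3, Rrad, Vash2, Acss1 and Zfp180 both groups of Bin1 mck-/- mice lie apart from WT, and in Flrt1, Gpx3, Spns2, Pla2g16 and Etv5 the treated mice lie apart from both other groups.

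A first group of called genes was away from WT in treated mice and also in untreated *Bin1* mck-/- mice. It includes several of the largest rises. *Anxa8* (ENSMUSG00000021950), which encodes an annexin, a family of proteins that bind phospholipids in the presence of calcium, had 7.84, 5.95, 1.13 and 16.3 CPM in treated mice. WT mice had 0.028, 0.104, 0.032 and 0 CPM. The treated mice were spread widely, and the lowest, mouse 3, was still above all WT mice. The log2 fold change of 6.25 (SE 1.05, adjusted p = 0.0289) was the largest of the called genes, and untreated *Bin1* mck-/- mice had 6.04 against WT (SE 1.05, adjusted p = 0.0236). WT mice held 1, 3, 1 and 0 reads of *Anxa8*, so the size of both changes is uncertain. The gene passed the filter on low counts through *Bin1* mck-/- mice alone. *Lgals3* (ENSMUSG00000050335), which encodes galectin-3, a sugar-binding protein made by macrophages among other cells, had 46.1, 41.3, 7.76 and 76.9 CPM in treated and 3.97, 2.99, 4.26 and 3.1 CPM in WT mice. Mouse 3 was again the lowest treated mouse. In log2 terms the change was 3.56 (SE 0.60, adjusted p = 0.0311), with 3.15 (SE 0.59, adjusted p = 0.0316) in untreated *Bin1* mck-/- mice. These calls rest on few mice. *Anxa8* kept its call in 7 and *Lgals3* in 4 of the 12 fits made without 1 mouse (leave-one-out fits), with an adjusted p of 0.118 for each without WT mouse 5. Of these 12 fits, here and below, 4 leave out an untreated *Bin1* mck-/- mouse, which is in the fit but not in the comparison.

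*Rrad* (ENSMUSG00000031880) encodes an RGK GTPase, a family that inhibits voltage-gated calcium channels. Treated mice had 17.8, 16.9, 3.3 and 7.68 CPM and WT mice 1.34, 1.04, 1.15 and 1.51. All treated mice were above WT and below the 23.4 to 49.2 CPM of the untreated *Bin1* mck-/- mice. Against WT the log2 fold change was 3.11 in treated mice (SE 0.51, adjusted p = 0.0232) and 4.65 in untreated mice (SE 0.53, adjusted p = 0.00522). Set against each other, treated and untreated mice differed by −1.54, which missed the threshold (SE 0.45, adjusted p = 0.0924). The call of *Rrad* against WT was kept in 7 of 12 leave-one-out fits (adjusted p = 0.0914 without WT mouse 5). The other RGK genes tested, *Rem1* and *Gem*, had log2 fold changes of −0.10 (SE 0.33, adjusted p = 0.917) and −0.48 (SE 0.25, adjusted p = 0.398).

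*Vash2* (ENSMUSG00000037568), whose product belongs to the vasohibins, enzymes that remove the last tyrosine of tubulin, had 5.67, 6.22, 4.19 and 4.46 CPM in treated and 1.48, 1.22, 0.928 and 0.753 CPM in WT mice. Its log2 fold change was 2.16 (SE 0.27, adjusted p = 0.00108), and 2.03 (SE 0.26, adjusted p = 0.00454) in untreated *Bin1* mck-/- mice. *Acss1* (ENSMUSG00000027452), the mitochondrial enzyme that makes acetyl-CoA from acetate, had 46.8, 52.5, 33.7 and 48.7 CPM in treated and 23.8, 19.6, 19.3 and 21.9 CPM in WT mice. In log2 terms the changes were 1.10 (SE 0.16, adjusted p = 0.0036) in treated and 1.08 (SE 0.16, adjusted p = 0.00602) in untreated *Bin1* mck-/- mice. Both genes kept their call under all 20 alternatives, as did *Maged2*, a member of the MAGE family (log2 fold change 0.90, SE 0.14, adjusted p = 0.00519; 0.70 in untreated mice, SE 0.14, adjusted p = 0.0181). *Acss1*, *Maged2* and the other genes of the groups in this and the next paragraphs that are not among the 15 largest rises and falls or in a gene list were chosen after their values were seen.

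Further genes of this first group were higher as well. *Sbk2*, a gene of the SH3-binding kinase family, had a log2 fold change of 1.67 in treated (SE 0.29, adjusted p = 0.023) and of 2.00 in untreated *Bin1* mck-/- mice (SE 0.29, adjusted p = 0.011). *Pak1*, a kinase that acts on the actin cytoskeleton, had 1.0 (SE 0.17, adjusted p = 0.011) and 1.18 (SE 0.17, adjusted p = 0.00522). *Gpx1*, a glutathione peroxidase, had 0.96 (SE 0.18, adjusted p = 0.0208) and 0.84 (SE 0.18, adjusted p = 0.027). *Clta*, a clathrin light chain of endocytosis, had 0.56 (SE 0.12, adjusted p = 0.0364) and 0.47 (SE 0.12, adjusted p = 0.0488). *Cnksr1*, a scaffold of Ras signalling, had 0.82 (SE 0.18, adjusted p = 0.046) and 0.86 (SE 0.18, adjusted p = 0.0261). *Crip3*, a LIM domain gene, had 2.30 (SE 0.46, adjusted p = 0.0297) and 2.51 (SE 0.46, adjusted p = 0.0147). Of these 6 genes *Pak1* kept its call in 11 of 12 leave-one-out fits (adjusted p = 0.0528 without WT mouse 6), and the others in 3 to 8. The highest adjusted p were 0.151 for *Cnksr1* without WT mouse 7 and 0.131 for *Clta* without WT mouse 5.

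Genes that were lower than WT in both groups of *Bin1* mck-/- mice were fewer among those named. *Zfp180*, a zinc finger gene, had 15.7, 15.9, 19.4 and 13.2 CPM in treated and 27.9, 26, 26.2 and 26 CPM in WT mice. The 4 WT mice lay within a narrow range and all treated mice below it. In log2 terms the change was −0.72 (SE 0.12, adjusted p = 0.011) in treated and −0.70 (SE 0.12, adjusted p = 0.0119) in untreated *Bin1* mck-/- mice, and the call held under all 20 alternatives. *Rassf3*, of the family of Ras association domain genes, had −0.43 (SE 0.09, adjusted p = 0.0326) and −0.54 (SE 0.09, adjusted p = 0.011). *Gm33543* had −1.60 (SE 0.24, adjusted p = 0.00452) and −1.15 (SE 0.23, adjusted p = 0.0225), with all 20 alternatives calling it. *Myl3* (ENSMUSG00000059741), a myosin light chain of slow fibers, had 94.5, 150, 120 and 102 CPM in treated and 309, 264, 229 and 320 CPM in WT mice. Its log2 fold change was −1.27 (SE 0.25, adjusted p = 0.0349) in treated and −1.60 (SE 0.25, adjusted p = 0.0119) in untreated mice. *Rassf3* and *Myl3* kept the call in 5 and 4 of 12 leave-one-out fits, with adjusted p up to 0.117 without WT mouse 6 and 0.126 without treated mouse 4.

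A second group of genes was called in treated mice and not in untreated *Bin1* mck-/- mice. This sorting is not a test of their difference. Treated against untreated mice, *Flrt1* had 6.13, *Gpx3* 2.27 and *Etv5* −1.16 on the log2 scale (edgeR adjusted p = 0.000458, 6.64e-05 and 0.0033). *Myh2* and *Ache*, described below, had −1.02 and −0.30 and missed the threshold (edgeR adjusted p = 0.129 and 0.287). Where no such value is given, a change limited to treated mice is not shown. The largest member is *Flrt1* (ENSMUSG00000047787), which encodes a transmembrane protein of cell adhesion and fibroblast growth factor signalling. Treated mice had 36.5, 30.1, 104 and 39.2 CPM, WT mice 0.559, 0.418, 1.38 and 0.753, and untreated *Bin1* mck-/- mice 0.386 to 0.977. Mouse 3 was highest by far, and the lowest treated mouse was above every mouse without the drug. The log2 fold change against WT was 5.96 (SE 0.52, adjusted p = 0.000552), and −0.17 in untreated *Bin1* mck-/- mice (SE 0.53, adjusted p = 0.901). *AC109619.1* (ENSMUSG00000117901), the gene model beside *Flrt1* on the same strand, rose with it, from 0.168, 0.592, 0.512 and 0.994 CPM in WT to 27.5, 14.1, 37.6 and 39.9 CPM in treated mice. It changed by 5.57 on the log2 scale (SE 0.44, adjusted p = 7.29e-05), with −2.02 (SE 0.51, adjusted p = 0.057) in untreated *Bin1* mck-/- mice. Reads near the border of the 2 gene models could belong to either. *Otub1*, the third called gene in this row, which encodes a deubiquitinase, had 0.49 (SE 0.10, adjusted p = 0.0349) and kept its call in 4 of 12 leave-one-out fits (adjusted p = 0.136 without WT mouse 5).

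*Gpx3* (ENSMUSG00000018339) encodes the secreted glutathione peroxidase, a selenoprotein that reduces peroxides outside the cell. It had 353, 728, 474 and 424 CPM in treated and 65.8, 76.6, 82 and 93.8 CPM in WT mice, with 82.4 to 118 CPM in untreated *Bin1* mck-/- mice. In log2 terms the change was 2.64 (SE 0.21, adjusted p = 1.08e-05) in treated and 0.36 (SE 0.20, adjusted p = 0.315) in untreated mice. *Msrb1*, a selenoprotein that repairs oxidized methionine, had 201, 161, 213 and 232 CPM in treated and 103, 120, 109 and 149 CPM in WT mice. Its log2 fold change was 0.74 (SE 0.14, adjusted p = 0.023), and 0.03 (SE 0.14, adjusted p = 0.934) in untreated mice. *Selenow*, an abundant selenoprotein of muscle, had a log2 fold change of 0.04 (SE 0.17, adjusted p = 0.939). Selenoproteins as a group were not tallied. *Gpx3* was called under all 20 alternatives, *Msrb1* and *Gpx1* in 8 of 12 leave-one-out fits (adjusted p = 0.0971 and 0.0849 without WT mouse 5).

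*Spns2* (ENSMUSG00000040447), the exporter of sphingosine-1-phosphate, had 70.3, 71.2, 95.1 and 119 CPM in treated mice. WT mice had 29.5, 30, 31.8 and 32.5 CPM and untreated *Bin1* mck-/- mice 24.7 to 28.7. Both drug-free groups lay within a narrow range, and the log2 fold change against WT was 1.52 (SE 0.15, adjusted p = 7.29e-05). *Odc1*, the first enzyme of polyamine synthesis, had 38.4, 36.7, 57.7 and 62.1 CPM in treated and 20, 18.2, 17.3 and 20.2 CPM in WT mice (log2 fold change 1.36, SE 0.17, adjusted p = 0.00145). *Eif4ebp1*, an inhibitor of cap-dependent translation, had 55.7, 55.5, 56.3 and 78.7 CPM in treated and 24.4, 30.4, 28.4 and 32.9 CPM in WT mice (1.08, SE 0.15, adjusted p = 0.00358). In untreated *Bin1* mck-/- mice the log2 fold changes of these genes were −0.17, 0.46 and 0.16 (adjusted p = 0.541, 0.139 and 0.591). *Cdkn1c* (ENSMUSG00000037664), an imprinted inhibitor of the cell cycle, had 30 to 33 CPM in treated and 16.3 to 17.7 CPM in WT mice (0.89, SE 0.14, adjusted p = 0.00634). *Tmem266*, which encodes a membrane protein with a voltage sensor domain, had 8.67, 9.1, 10.2 and 7.35 CPM in treated and 1.12, 1.84, 1.95 and 2.47 CPM in WT mice (2.22, SE 0.24, adjusted p = 0.000338). These 5 genes were called under all 20 alternatives.

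Enzymes of metabolism were called in both directions. *Fbp2*, the muscle fructose bisphosphatase, had 77, 69.1, 137 and 117 CPM in treated and 36.1, 46.4, 37.1 and 37.1 CPM in WT mice (log2 fold change 1.35, SE 0.21, adjusted p = 0.011). *Pcx*, pyruvate carboxylase, had 197, 130, 338 and 158 CPM in treated and 76.7, 84.5, 82.5 and 73.9 CPM in WT mice (1.37, SE 0.24, adjusted p = 0.0223). Both act in the path from pyruvate towards glucose, and untreated *Bin1* mck-/- mice were not called for either (−0.59 and −0.24, adjusted p = 0.138 and 0.62). *Ldhd*, the mitochondrial dehydrogenase of D-lactate, fell by 0.60 on the log2 scale (SE 0.09, adjusted p = 0.00513), from 87.4, 94.9, 95.1 and 87.1 CPM in WT to 66.6, 59.4, 57.1 and 56.8 CPM. It had 104 to 113 CPM in untreated *Bin1* mck-/- mice, above the WT mice (0.26, SE 0.09, adjusted p = 0.116). *Acss2*, the cytosolic and nuclear counterpart of *Acss1*, was lower in treated mice (−0.66, SE 0.12, adjusted p = 0.0191), where *Acss1* was higher. *Ldhd* held its call under all 20 alternatives, *Fbp2* and *Acss2* in 10 and *Pcx* in 8 of 12 leave-one-out fits (adjusted p up to 0.0862, without WT mouse 5).

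*Tfam*, whose product packs and transcribes mitochondrial DNA, was higher in treated mice. *Perm1*, *Akap1*, *Trak2* and *Fndc5*, picked among the called genes after their values were seen, were lower. *Tfam* had 57.7, 56.7, 72 and 77.7 CPM in treated and 43.8, 45.1, 37.3 and 50.7 CPM in WT mice (log2 fold change 0.58, SE 0.13, adjusted p = 0.0448). *Perm1*, a muscle regulator of mitochondrial genes, had 364, 314, 254 and 271 CPM in treated and 537, 463, 449 and 538 CPM in WT mice (−0.72, SE 0.15, adjusted p = 0.0362). *Akap1*, an anchor of protein kinase A at the outer mitochondrial membrane, had a log2 fold change of −0.52 (SE 0.11, adjusted p = 0.0336). *Trak2*, an adaptor that links mitochondria to kinesin motors, had 87.8, 98.4, 113 and 88.7 CPM in treated and 197, 162, 158 and 157 CPM in WT mice (−0.80, SE 0.11, adjusted p = 0.00358). *Fndc5*, the precursor of irisin, had −0.90 (SE 0.16, adjusted p = 0.015). *Trak2* was called under all 20 alternatives. *Tfam*, *Perm1* and *Akap1* kept their call in 3, 5 and 7 of 12 leave-one-out fits, with adjusted p of 0.153 without WT mouse 7 and of 0.119 and 0.106 without WT mouse 5. *Fndc5* lost it in 2 of these fits (adjusted p up to 0.0528, without WT mouse 6).

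*Etv5*, *Etv4* and *Spry1*, which are known to respond to fibroblast growth factor signalling, were lower in treated mice. *Etv5* (ENSMUSG00000013089), a transcription factor gene of this pathway that also acts at the neuromuscular junction, had 3.4, 3.91, 4.66 and 5.52 CPM in treated and 10.4, 9.08, 9.82 and 9.31 CPM in WT mice, and 7.61 to 11 CPM in untreated *Bin1* mck-/- mice. In log2 terms the change was −1.13 (SE 0.17, adjusted p = 0.00519), called under all 20 alternatives. Its relative *Etv4* had 1.79, 1.46, 1.9 and 2.74 CPM in treated and 5.4, 5.99, 4.42 and 4.82 CPM in WT mice (−1.36, SE 0.25, adjusted p = 0.0208). *Spry1*, an inhibitor of receptor tyrosine kinase signalling, had −0.65 (SE 0.14, adjusted p = 0.0478). Further genes known to respond to it did not pass: *Dusp6* had −0.83 (SE 0.27, adjusted p = 0.175), *Spry2* −0.28 (SE 0.15, adjusted p = 0.39) and *Spry4* −0.32 (SE 0.21, adjusted p = 0.496). *Etv4* and *Spry1* kept the call in 9 and 4 of 12 leave-one-out fits (adjusted p = 0.0829 without WT mouse 6 and 0.157 without WT mouse 7). *Etv5* and *Etv4* are among the 15 largest falls, and the other genes of this group were picked after their values were seen.

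Other genes were lower in treated mice and not called in untreated *Bin1* mck-/- mice. *Pla2g16* (ENSMUSG00000060675), a phospholipase, had 113, 126, 83.7 and 96.7 CPM in treated and 206, 227, 195 and 220 CPM in WT mice (log2 fold change −1.02, SE 0.13, adjusted p = 0.00148). *Dapp1*, an adaptor that binds phosphoinositides, had 3.01, 5.37, 4.07 and 2.7 CPM in treated and 11.9, 12.1, 11.7 and 7.8 CPM in WT mice (−1.50, SE 0.21, adjusted p = 0.00358). *Rcan2*, a regulator of the calcium-dependent phosphatase calcineurin, had −0.72 (SE 0.10, adjusted p = 0.0036), and *Apol6*, of the apolipoprotein L family, −0.93 (SE 0.16, adjusted p = 0.011). In untreated mice these 4 genes had log2 fold changes of 0.07, 0.05, 0.04 and 0.56 (adjusted p = 0.799, 0.928, 0.875 and 0.0637). *Sptbn5*, a spectrin, had −1.91 (SE 0.31, adjusted p = 0.00842). These 5 genes were called under all 20 alternatives. *Inpp5j*, a phosphatase of inositol phosphates, had 9.06, 6.61, 5.2 and 4.61 CPM in treated and 17.8, 12.9, 13.7 and 11.6 CPM in WT mice (−1.13, SE 0.23, adjusted p = 0.0297, kept in 7 of 12 leave-one-out fits, with 0.0987 without WT mouse 5). *Mical2*, an enzyme that oxidizes actin, had −1.47 (SE 0.25, adjusted p = 0.0183) and lost its call only without treated mouse 4 (adjusted p = 0.0597). Untreated mice had −0.82 against WT (SE 0.24, adjusted p = 0.0875), and treated against untreated mice −0.66 (SE 0.24, adjusted p = 0.15). Both missed the threshold, so a fall limited to treated mice is not shown for *Mical2*.

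The called genes were also set out by their order along the chromosomes, using the GRCm38 annotation for names and order only. Of the 126 genes, 12 lay in 4 rows of called genes with no other tested gene between them. The longest row was 5 genes on chromosome 19, all higher in treated mice: *B230217O12Rik*, *Fam160b1*, *AC140413.2*, *Trub1* and *Atrnl1*. The next tested genes on either side, *Ablim1* and *Gfra1*, had log2 fold changes of −0.02 and 0.48 and were not called. The row was noticed after the values were seen. The plot of neighbouring genes shows it with the values of untreated *Bin1* mck-/- and of tamoxifen-treated WT mice. To show what lies before these genes, the 250 bases upstream of the start of 3 of them that RefSeq lists are printed 5′ to 3′ (GRCm38.p6, + strand), at chr19:57360759-57361008 for *Fam160b1*, chr19:57452656-57452905 for *Trub1* and chr19:57610784-57611033 for *Atrnl1*. Capitals mark the estrogen response half-site GGTCA, searched on both strands because tamoxifen acts on the estrogen receptor.
Fam160b1: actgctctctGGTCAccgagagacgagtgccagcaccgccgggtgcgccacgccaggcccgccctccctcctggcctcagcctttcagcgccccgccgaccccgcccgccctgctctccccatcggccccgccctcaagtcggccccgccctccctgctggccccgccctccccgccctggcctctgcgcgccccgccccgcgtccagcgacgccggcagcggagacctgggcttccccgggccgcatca
Trub1: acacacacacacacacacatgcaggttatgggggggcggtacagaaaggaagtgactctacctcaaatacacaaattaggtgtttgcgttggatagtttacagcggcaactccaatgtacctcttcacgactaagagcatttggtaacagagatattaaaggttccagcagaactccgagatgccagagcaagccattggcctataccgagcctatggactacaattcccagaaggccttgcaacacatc
Atrnl1: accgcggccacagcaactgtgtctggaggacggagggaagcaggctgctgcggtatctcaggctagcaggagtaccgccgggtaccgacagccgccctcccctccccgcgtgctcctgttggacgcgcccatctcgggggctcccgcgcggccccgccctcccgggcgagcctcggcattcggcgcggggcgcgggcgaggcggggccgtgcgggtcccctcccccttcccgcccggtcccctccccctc

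Within this row, *AC140413.2* (ENSMUSG00000117927) had no read in WT or untreated *Bin1* mck-/- mice and 162 reads over the 4 treated mice (0.872, 1.27, 3.1 and 0.731 CPM). Against a floor of 3 reads over the 4 WT libraries it was at least 64.3-fold higher. It passed the filter on low counts through the treated mice alone, so its call and its place in the row are no independent support. *Fam160b1* (ENSMUSG00000033478) had 33.5, 46.3, 64.3 and 43 CPM in treated and 22.6, 19.3, 16.8 and 19.2 CPM in WT mice (log2 fold change 1.26, SE 0.16, adjusted p = 0.00148). *Trub1*, a pseudouridine synthase, had 14.5, 18.2, 40.9 and 23.9 CPM in treated and 9.03, 7.48, 10.4 and 7.83 CPM in WT mice (1.48, SE 0.26, adjusted p = 0.0191). Mouse 3 was the highest treated mouse for all 3 genes. It was so also for *Atrnl1*, with 14.2, 13.3, 37.6 and 25.3 CPM in treated and 6.57, 7.03, 7.1 and 6.63 CPM in WT mice (1.72, SE 0.29, adjusted p = 0.0167), and for *B230217O12Rik*, with 4.71, 3.61, 17.6 and 3.87 CPM in treated and 0.615, 0.592, 1.66 and 0.904 CPM in WT mice (2.90, SE 0.55, adjusted p = 0.032). *Fam160b1* was called under all 20 alternatives. *B230217O12Rik*, *Trub1* and *Atrnl1* were called in 9, 8 and 7 of 12 leave-one-out fits, with adjusted p of 0.123, 0.0829 and 0.0698 without WT mouse 5, WT mouse 6 and WT mouse 5. Reads of neighbouring gene models that overlap, or that continue past the end of a gene, were not told apart here.

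**Figure D3:**
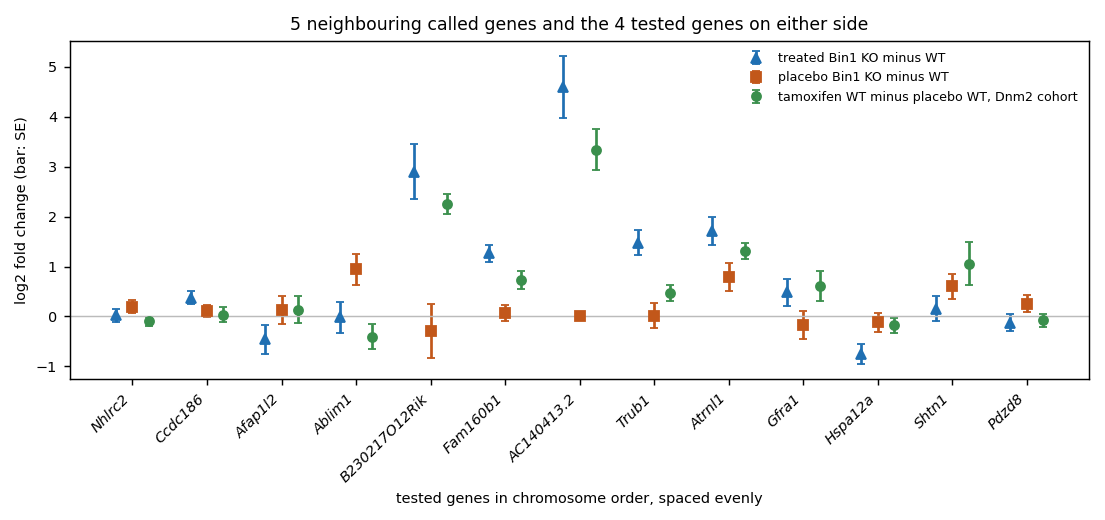
Log2 fold change (y axis, bars are SE) of 13 tested genes in chromosome order, evenly spaced, for treated Bin1 mck-/- against WT, untreated Bin1 mck-/- against the same WT mice, and tamoxifen WT against placebo WT of the Dnm2 cohort. The 5 genes from B230217O12Rik to Atrnl1 are above 0 in treated mice, and Ablim1 and Gfra1 beside them were not called. AC140413.2 had no read in untreated Bin1 mck-/- or WT mice, so its point at 0 has no SE.

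Upstream sequence was looked up in RefSeq for all called genes, and 89 of the 126 matched, with 119 start sites. A full estrogen response element, GGTCA and TGACC held 3 bases apart, was in the 250 bases upstream of 0 of the 119 start sites and of 0.0639% of all 32851 start sites in the table. The half-site GGTCA was found at 34.5% of the called and 35.2% of all start sites, and at *Fam160b1* as printed above. The AP-1 motif TGANTCA was found at 5.88% and 6.75%, the E-box CACGTG of the clock factors at 10.1% and 6.02%, and the MEF2 motif, CTA and TAG held 4 bases apart, at 3.36% and 3.20%. None of these motifs was found in the 250 bases upstream of *Gpx3*, the called gene with one of the smallest adjusted p, at chr11:54902604-54902853 on the + strand (GRCm38.p6).
Gpx3: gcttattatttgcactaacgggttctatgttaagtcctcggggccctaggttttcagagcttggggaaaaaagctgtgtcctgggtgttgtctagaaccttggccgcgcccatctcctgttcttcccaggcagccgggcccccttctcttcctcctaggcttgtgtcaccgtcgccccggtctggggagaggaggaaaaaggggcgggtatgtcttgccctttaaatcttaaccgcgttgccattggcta

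Lists of genes by function were then described by how many of their tested members were called. Over all genes tested the share called was 0.849%. Each list held 0 to 2 called genes, and such small counts are not read as a result about a list. In the list of the triad and excitation-contraction coupling, 1 of 30 genes was called, *Bin1* itself. The median log2 fold change was 0.01, against 0.03 over all genes. Among calcium pumps and their regulators 0 of 11 were called. *Sln*, whose product sarcolipin inhibits the calcium pump, had 7.63, 7.89, 9.47 and 18.1 CPM in treated and 1.23, 2.68, 2.21 and 2.8 CPM in WT mice. All treated mice were above WT, and treated mice 1 to 3 below the 15.2 to 107 CPM of untreated *Bin1* mck-/- mice. *Sln* was not called, with a log2 fold change of 2.25 (SE 0.58, adjusted p = 0.116). Of 30 genes of membrane remodelling and endocytosis, *Clta* was higher and *Bin1* lower. *Amph*, which encodes the relative of amphiphysin 2, had −1.22 (SE 0.31, adjusted p = 0.0826). None of the 29 phosphoinositide phosphatases and kinases in the list was called, with a median of −0.03. The list does not hold *Inpp5j*, described above, which was called lower. Of 3 RGK GTPases tested, *Rrad* was.

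Among fiber-type genes, 1 of 16 slow genes (*Myl3*) and 1 of 17 fast genes (*Myh2*) were called, both lower. *Myh2* (ENSMUSG00000033196), the myosin heavy chain of fast oxidative fibers, had 900, 2137, 943 and 1707 CPM in treated and 9170, 4452, 2778 and 4584 CPM in WT mice. All treated mice were below WT, and WT mouse 5 was highest by far. *Myh2* had a log2 fold change of −1.88 (SE 0.36, adjusted p = 0.0326), a call kept in 5 of 12 leave-one-out fits and lost when only the 8 mice were fitted (adjusted p = 0.102). As a share of the reads of the 4 adult myosin heavy chains, *Myh2* took 3.40% ± 2.10 (SD, n = 4) in treated and 11.4% ± 6.18 in WT mice (exact two-sided permutation p = 0.0571, 0.229 adjusted over the 4 shares, where 0.0286 is the smallest possible). The single shares were 2.44%, 6.38%, 1.54% and 3.25% in treated and 20.1%, 8.83%, 5.65% and 10.9% in WT mice, so that treated mouse 2 overlapped WT mouse 7. The shares of *Myh1*, *Myh4* and *Myh7* differed by 6.10, 1.82 and 0.0534 percentage points (exact permutation p = 0.171, 0.771 and 0.171). Reads can be shared between these near-identical genes.

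Denervation and synapse genes held 2 lower calls of 25, *Etv5* and *Ache*. *Ache*, the acetylcholinesterase of the neuromuscular junction, had 28.1, 20.2, 32.2 and 29.5 CPM in treated and 41.5, 48, 54.6 and 40.6 CPM in WT mice (log2 fold change −0.75, SE 0.15, adjusted p = 0.0336, kept in 5 of 12 leave-one-out fits, with 0.119 without WT mouse 7). Of 23 myogenic regulators and developmental muscle genes, 0 were called. *Myh8*, the perinatal myosin, had 65.6 CPM in treated mouse 4 and 13.6 to 18.8 in the other treated mice, against 5.63 to 8.89 in WT (2.06, SE 0.54, adjusted p = 0.117). In the list of atrophy ligases and growth signals 1 of 25 was called. This was *Trim63* (ENSMUSG00000028834), the ubiquitin ligase MuRF1, which marks sarcomere proteins for breakdown, with 400, 314, 349 and 596 CPM in treated and 145, 200, 154 and 163 CPM in WT mice. The groups did not overlap, and the log2 fold change of 1.33 (SE 0.20, adjusted p = 0.00519) was called under all 20 alternatives. Untreated *Bin1* mck-/- mice had 216 to 356 CPM (0.74, SE 0.20, adjusted p = 0.057).

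No gene of the energy metabolism lists was called, that is none of 7 genes of the mitochondrial genome, 76 nuclear genes of the respiratory chain, 38 genes of fatty acid uptake and oxidation and 28 of glycolysis and glycogen. In the list of the nuclear respiratory chain 64 of 76 log2 fold changes were above 0, with a median of 0.16. The summed level was 40525, 34037, 31140 and 43801 CPM in treated and 33574 to 38200 CPM in WT mice. Treated mice 1 and 4 lay above WT, mouse 2 within it and mouse 3 below it, so this is no shift shared by the treated mice. The smallest adjusted p of this list was at *Atp5l*, a subunit of ATP synthase (0.92, SE 0.22, adjusted p = 0.0714). The medians of the other lists were 0.11, −0.07 and 0.07. Mitochondrial genes took 9.62% ± 0.974 of the reads on genes in treated and 9.10% ± 0.827 in WT mice (SD, n = 4; exact two-sided permutation p = 0.429). *Lpl*, lipoprotein lipase, had the smallest p of the fatty acid list (−0.63, SE 0.17, adjusted p = 0.0959). In the glycolysis list *Gapdh*, a glycolytic enzyme, had the smallest p, with 20.9, 24.6, 32.2 and 29.8 CPM in treated and 15.2, 18.4, 15 and 16.8 CPM in WT mice (0.72, SE 0.19, adjusted p = 0.0959). Its level is uncertain because reads can be shared with near-identical copies. *Hk1*, a hexokinase, had 0.59 (SE 0.18, adjusted p = 0.132). *Ldhb*, the lactate dehydrogenase of oxidative tissue, had 86.2, 92.1, 39 and 65 CPM in treated and 156, 117, 109 and 137 CPM in WT mice (−0.88, SE 0.23, adjusted p = 0.0999).

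**Figure D4:**
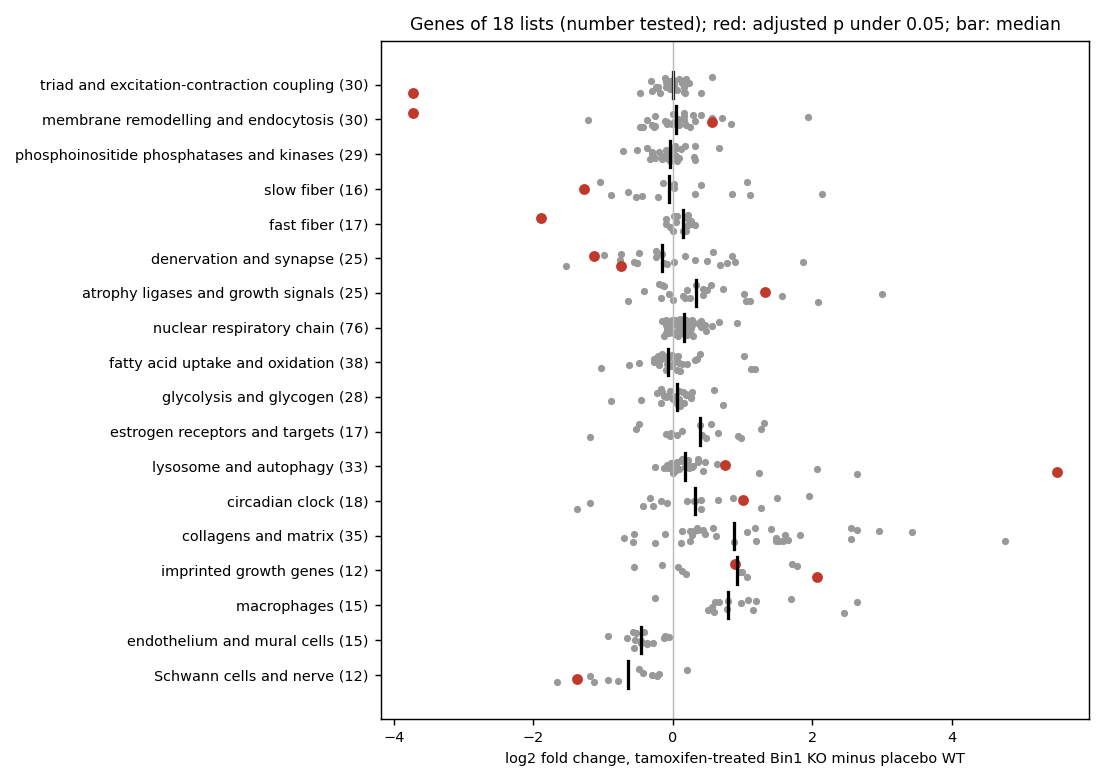
Log2 fold change of treated Bin1 mck-/- against WT mice (x axis) for each tested gene of 18 lists, with the number tested in parentheses, called genes in red and the median as a black bar. Most lists hold 0 or 1 called gene, where 0.849% of all genes tested were called. All 15 endothelial genes lie below 0 with none called.

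Lists tied to the drug and to stress held 0 to 2 called genes each, where 0.849% of all genes tested were called. Estrogen receptors and targets had 0 of 17, with a median of 0.39 and *Nrip1*, a corepressor of nuclear receptors, just short of the threshold (0.97, SE 0.21, adjusted p = 0.0506). Its level was 25.3, 31.8, 38.4 and 39.3 CPM in treated and 19.2, 15.3, 14.4 and 19.6 CPM in WT mice, without overlap. Sterol synthesis and uptake had 0 of 28 (median −0.12), heat shock proteins 0 of 17 (median −0.18) and the interferon response 0 of 26 (median −0.09). Called genes of these kinds lay outside the lists. *Hspa1l*, a heat shock protein of the HSP70 family, had 22.4, 16.9, 23.3 and 19.7 CPM in treated and 45.1, 41.3, 29.9 and 42.8 CPM in WT mice (−0.95, SE 0.18, adjusted p = 0.0277). *Hspb2*, a small heat shock protein of muscle, had 120, 95.7, 109 and 127 CPM in treated and 83.2, 75.2, 76.6 and 80.4 CPM in WT mice (0.52, SE 0.11, adjusted p = 0.0326). *Cxcl10*, a chemokine induced by interferon, was called at a low level and passed the filter on low counts through *Bin1* mck-/- mice. It had 0.558 ± 0.200 CPM in treated and 0.00753 ± 0.0151 CPM in WT mice (SD, n = 4, edgeR adjusted p = 0.00715). *Hspa1l*, *Hspb2* and *Cxcl10* were called in 15, 12 and 18 of the 20 alternatives and were named after their values were seen. In the list of lysosome and autophagy, 27 of 33 genes had a log2 fold change above 0 (median 0.17) and 2 were called higher. The called genes were *Map1lc3a*, a coat protein of autophagosomes (0.74, SE 0.16, adjusted p = 0.0381), and *Atp6v0d2*, a subunit of the proton pump that osteoclasts and macrophages express. *Atp6v0d2* had 5.27, 6.31, 0.116 and 2.63 CPM in treated and 0.028, 0.0348, 0 and 0 CPM in WT mice (5.51, SE 1.01, adjusted p = 0.0308). With WT at or near 0 the size of this change is uncertain, and the gene passed the filter on low counts through *Bin1* mck-/- mice. *Map1lc3a* and *Atp6v0d2* kept their calls in 4 and 6 of 12 leave-one-out fits (adjusted p = 0.129 without WT mouse 7 and 0.119 without WT mouse 5). Of 24 genes of the integrated stress and unfolded protein response, *Dnajb9*, a chaperone of the endoplasmic reticulum, was higher (0.72, SE 0.14, adjusted p = 0.0291, kept in 5 of 12 such fits, with 0.102 without WT mouse 7).

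Of 18 circadian clock genes, *Cry2*, a repressor of the clock, was higher, with 30.3, 62.3, 60.1 and 61 CPM in treated and 22.4, 30.1, 27.5 and 26.8 CPM in WT mice. Treated mouse 1 lay just above the highest WT mouse. *Cry2* had a log2 fold change of 1.0 (SE 0.21, adjusted p = 0.0478), kept in 3 of 12 leave-one-out fits (0.152 without WT mouse 5), and the hour of death of the mice was not given in the sources used here. Of 12 imprinted growth genes 2 were higher, *Cdkn1c* and *Mirg*, a noncoding RNA that hosts microRNAs. *Mirg* had 11.9, 8.71, 38.6 and 14.3 CPM in treated, 3.94, 5.57, 3.04 and 4.76 CPM in WT and 1.86 to 2.28 CPM in untreated *Bin1* mck-/- mice (2.07, SE 0.40, adjusted p = 0.0336, kept in 5 of 12 such fits, with 0.125 without WT mouse 5). Cell cycle genes had 0 of 24 calls with a median of 0.01, and collagens and matrix genes 0 of 35 with a median of 0.87. The summed level of the matrix list was 5008, 15573, 3321 and 1223 CPM in treated and 3201 to 4264 CPM in WT mice. Treated mice 1 and 2 lay above WT, mouse 3 within it and mouse 4 below it, so this median is no shift shared by the treated mice.

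Markers of the cell types a TA sample can hold were summed in each mouse. Bone markers were high in treated mouse 2 alone. The summed level of 17 osteoblast and osteocyte genes was 951 CPM in this mouse, 20.5 to 30.2 CPM in treated mice 1, 3 and 4, and 40.6 to 50.2 CPM in WT. *Mmp13*, a collagenase of bone and cartilage, had 291 CPM in treated mouse 2 and at most 1.05 CPM in the other treated mice, and *Ibsp*, bone sialoprotein, had 186 CPM against at most 0.0872. Osteoclast markers reached 184 CPM in that mouse, against 6.47 to 18.9 CPM in the other treated and 8.65 to 10.7 CPM in WT mice, and cartilage markers 184 CPM, against 11.3 to 37.1 and 15.8 to 20.8. Of these 3 lists, 0 of 8, 1 of 8 (*Atp6v0d2*) and 0 of 7 tested genes were called. Matrix genes followed, with *Col12a1* at 598 CPM in treated mouse 2 and 1.54 to 9.35 CPM in the others. Without this mouse 132 genes were called, of which 94 were among the 126.

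Macrophage markers had 0 of 15 calls, and 14 log2 fold changes were above 0 (median 0.79). Their summed level was 249, 255, 80.9 and 94 CPM in treated, 69.7 to 108 CPM in WT and 203 to 421 CPM in untreated *Bin1* mck-/- mice. Treated mice 1 and 2 lay with the untreated mice and mice 3 and 4 with WT. *Cd68*, a lysosomal protein of macrophages, had 17.7, 18.7, 2.99 and 13.3 CPM in treated and 1.74 to 2.91 CPM in WT mice (2.45, SE 0.50, adjusted p = 0.0507). Treated mouse 3 was lowest for the macrophage markers as for *Lgals3* and *Atp6v0d2*, which macrophages also express. The other mice did not keep this order for *Lgals3*. Treated mouse 4, with markers within the WT range, had 76.9 CPM of it, above the 46.1 and 41.3 CPM of mice 1 and 2. *Atp6v0d2* was lower in mouse 4 than in mice 1 and 2. What macrophages add to the level of both genes was not tested. Schwann cell and nerve markers summed to 84.3, 68.4, 65.3 and 69.8 CPM in treated mice, below the 110 to 159 CPM of WT and the 109 to 180 CPM of untreated mice, with 11 of 12 log2 fold changes below 0. *Mbp*, myelin basic protein, was the called gene of this list, with 8.85, 4.7, 7.14 and 7.42 CPM in treated and 13.5, 13.8, 20.1 and 25.9 CPM in WT mice (−1.38, SE 0.27, adjusted p = 0.0326). *Mbp* kept its call in 7 of 12 leave-one-out fits (adjusted p = 0.105 without treated mouse 4), and how much nerve each sample held was not measured.

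All 15 genes of endothelium and mural cells had a log2 fold change below 0 (median −0.45), with 0 called. Their summed level was 1179, 1251, 1082 and 715 CPM in treated and 1379 to 1478 CPM in WT mice, without overlap. *Cdh5*, the cadherin of endothelial junctions, had the smallest p, with 138, 141, 112 and 74.2 CPM against 188, 169, 210 and 165 (−0.65, SE 0.17, adjusted p = 0.0962). The other cell types gave no call: 11 tendon genes, 15 of fibroblasts and fibro-adipogenic progenitors, 10 of satellite cells, 3 of neutrophils and marrow, 4 of lymphocytes, 10 of adipocytes and 7 of erythrocytes. *Pax7*, which defines satellite cells, had 3.14, 3.67, 2.6 and 3.55 CPM in treated and 5.54, 6.33, 5.86 and 5.6 CPM in WT mice (−0.83, SE 0.32, adjusted p = 0.247). *Xist*, the 1 sex-linked gene tested, had 0.32 (SE 0.12, adjusted p = 0.251). Summed with the 4 Y-linked genes it was 78.8 to 115 CPM in treated, 75.6 to 79.7 in WT and 70.8 to 99.6 in untreated *Bin1* mck-/- mice. Of the Y-linked genes 3 had 0 reads in all these mice, as in female muscle, though the labels do not give the sex.

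The *Dnm2* cohort shares no mouse with the comparison described here, and its libraries started from 300 ng of RNA, fragmented for 2 min. In WT mice, tamoxifen against placebo called 27.7% of the genes tested there (4273 of 15439). Of the 126 genes, 123 were tested in that cohort. With tamoxifen in WT mice, 105 of the 123 moved in the direction they had in treated *Bin1* mck-/- mice, and 70 were called in that direction, that is 56.9% of the 123 and 1.64% of the 4273. None was called in the opposite direction. These were 32 of the 67 higher and 38 of the 56 lower genes. In tamoxifen-treated *Dnm2* S619L/+ mice, where 28.9% of the genes were called against WT, 71 of the 123 were called in the same direction (57.7%, and 1.59% of the 4461 called there) and 0 in the opposite one. In *Dnm2* S619L/+ mice on placebo, where 21.9% were called, 45 were called in the same (36.6%, and 1.33% of the 3382) and 9 in the opposite direction. The 3 comparisons of the *Dnm2* cohort share their WT mice, so their counts are not independent of each other.

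**Figure D5:**
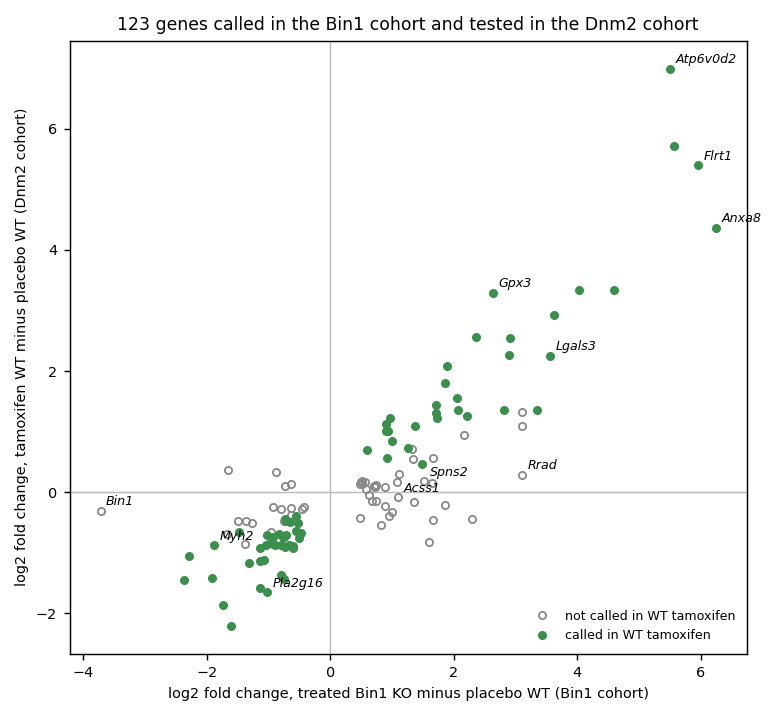
Log2 fold change of 123 called genes in treated Bin1 mck-/- against WT mice (x axis) and in tamoxifen WT against placebo WT mice of the Dnm2 cohort (y axis), each point a gene, filled where it was called in the second comparison. Flrt1 and Gpx3 lie high on both axes, while Bin1, Rrad, Spns2 and Acss1 lie near 0 on the y axis.

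For single genes, tamoxifen in WT mice gave log2 fold changes of 5.40 for *Flrt1* (SE 0.45, adjusted p = 2.37e-05), 5.71 for *AC109619.1* (SE 0.21, adjusted p = 1.03e-10) and 3.29 for *Gpx3* (SE 0.41, adjusted p = 0.000245). For *Pla2g16* and *Etv5* it gave −1.65 (SE 0.15, adjusted p = 2.37e-05) and −1.58 (SE 0.32, adjusted p = 0.00229). *Lgals3* and *Anxa8*, which were also higher in untreated *Bin1* mck-/- mice, rose with the drug in WT mice too, by 2.26 (SE 0.34, adjusted p = 0.000488) and 4.37 (SE 0.73, adjusted p = 0.000806). The values of 5 genes were near 0 in WT mice on tamoxifen. They were 0.29 for *Rrad* (SE 0.37, adjusted p = 0.598), −0.08 for *Acss1* (SE 0.17, adjusted p = 0.753), 0.18 for *Spns2* (SE 0.32, adjusted p = 0.707), −0.16 for *Odc1* (SE 0.29, adjusted p = 0.714) and 0.16 for *Eif4ebp1* (SE 0.23, adjusted p = 0.624). *Rrad* was high in *Dnm2* S619L/+ mice with tamoxifen (4.84, SE 0.38, adjusted p = 1.32e-05) and with placebo (4.90, SE 0.38, adjusted p = 5.16e-06). *Zfp180* was lower in all 3 comparisons of the *Dnm2* cohort, with −0.47, −0.88 and −0.79 in tamoxifen WT, tamoxifen *Dnm2* S619L/+ and placebo *Dnm2* S619L/+ mice (adjusted p = 0.0057, 0.000167 and 0.000225).

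Whether these changes differ between the cohorts was tested in 1 fit of all 28 mice, as the difference between treated *Bin1* mck-/- against WT and tamoxifen WT against placebo WT. It was called for 155 of 16036 genes (0.967%), 10 of them among the 126. Besides *Bin1* (−3.42, SE 0.19, adjusted p = 6.29e-12) and *Gm44577* (5.31, SE 0.57, adjusted p = 7.62e-06), these were *Rrad* (2.81, SE 0.64, adjusted p = 0.0404), *Sbk2* (2.12, SE 0.41, adjusted p = 0.0361), *Acss1* (1.17, SE 0.24, adjusted p = 0.0361), *Odc1* (1.52, SE 0.37, adjusted p = 0.0477), *1110046J04Rik* (2.07, SE 0.48, adjusted p = 0.0412), *D830050J10Rik* (1.10, SE 0.27, adjusted p = 0.0497), *Kif1a* (−2.03, SE 0.45, adjusted p = 0.0392) and *Itga3* (−0.83, SE 0.21, adjusted p = 0.0497). *Kif1a* encodes a kinesin of axonal transport and *Itga3* an integrin. *Bin1* is the deleted gene, so its difference was fixed in advance. *Gm44577* passed the filter on low counts through *Bin1* mck-/- mice alone, with group means of 0.178 to 0.262 CPM in the *Dnm2* cohort. Neither gene is support for a difference between the cohorts. The others were called in 5 to 11 of the 20 alternatives. The count of 155 genes depended on single mice. It was 2 to 16 without any one of treated *Bin1* mck-/- mice 1 and 4, WT mice 5, 6 and 7, or, in the *Dnm2* cohort, placebo WT mice 2 and 3 and tamoxifen WT mice 1 and 2. It was 1661 and 316 without treated mice 2 and 3, and 420 without tamoxifen WT mouse 4 of the *Dnm2* cohort. Among genes outside the 126, *Fosl2*, a subunit of AP-1, was not called in treated *Bin1* mck-/- mice (−0.24, SE 0.16, adjusted p = 0.525) and higher with tamoxifen in WT mice (1.41, SE 0.21, adjusted p = 0.000418), a difference of −1.66 (SE 0.28, adjusted p = 0.018).

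The same test against tamoxifen-treated *Dnm2* S619L/+ mice called 216 of 16036 genes (1.35%), 14 of them among the 126. *Spns2* differed by 1.76 (SE 0.40, adjusted p = 0.0289), *Trub1* by 1.47 (SE 0.30, adjusted p = 0.0172), *Fbp2* by 1.49 (SE 0.33, adjusted p = 0.0278), *Tmem266* by 1.45 (SE 0.34, adjusted p = 0.0303) and *Fam160b1* by 1.0 (SE 0.25, adjusted p = 0.0433). *Eif2b3*, a subunit of a translation initiation factor, differed by 0.76 (SE 0.18, adjusted p = 0.0337). *Trub1* was called in 19 of 20 alternatives and the other 5 in 7 to 10. *Gpc4*, a heparan sulfate proteoglycan, was called in all 20. It had 20.7, 16.7, 21.1 and 16 CPM in treated *Bin1* mck-/- and 21.9, 15.7, 18 and 21.2 CPM in WT mice, with a log2 fold change of −0.04 (SE 0.13, adjusted p = 0.907), against 1.0 in tamoxifen-treated *Dnm2* S619L/+ mice (SE 0.11, adjusted p = 8.52e-05). The difference was −1.07 (SE 0.17, adjusted p = 0.00427). Here too single mice moved the count. It was 1187, 115 and 106 without treated *Bin1* mck-/- mice 2, 3 and 4, and 89, 141 and 84 without WT mice 5, 6 and 7. In the *Dnm2* cohort it was 48, 35 and 369 without placebo WT mice 2, 3 and 4, and 53, 82, 55 and 1074 without tamoxifen-treated *Dnm2* S619L/+ mice 1, 2, 3 and 4.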

How the data were processed

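TA muscle RNA of 28 mice in 7 groups of 4 was sequenced from strand-specific polyA libraries. For each cohort the authors deposited 1 table of raw counts, whole numbers of reads assigned to each Ensembl identifier. The submitters' processing notes name bcl2fastq 2.20.0.422, cutadapt 1.10, Bowtie 1.2.2, STAR 2.5.3, HTSeq 0.6.1p1 and the build mm39. The table of the *Bin1* cohort holds 4 lines that are not genes (22.0% to 30.8% of its counts per mouse), which were left out. Of its 55359 identifiers, 52083 were named with the GENCODE annotation of GRCm38, and no coordinates of mm39 were used.

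Genes were filtered with edgeR's default, scaled by TMM and tested with the robust quasi-likelihood test (edgeR 4.0.16, limma 3.58.1, R 4.3.3), with the 12 mice of the *Bin1* cohort in 1 fit, the 16 of the *Dnm2* cohort in another and all 28 for differences between cohorts. A prior count of 2 enters log2 fold changes, p-values were adjusted by Benjamini-Hochberg over all genes tested, and the threshold was 0.05. The SE of a log2 fold change was derived from the test, as its absolute value divided by the square root of the F statistic. Shares were tested by exact permutation over mice, two-sided. Scripts were tested on simulated data. Within each group, no pair of mice agreed within counting error (chi-square per gene of at least 22.6).

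The members and the 38 gene lists were chosen with earlier results of these data known. Genes named by rule are those of centronuclear myopathy that the study names, the 15 largest rises and 15 largest falls among called genes without overlap whose mean log2 CPM is above 1, the called or most significant members of each list, and the 5 genes with the smallest p in each difference. Alternatives were DESeq2 1.42.0, RLE scaling, no filter, the study's filter (over 10 reads in 90% of mice), only the 8 mice, no robust estimation, library sizes without mitochondrial genes, a replicate block and leaving out each mouse.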

Additional observations from a re-analysis of the deposited data

Results flagged for a closer look

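In groups of 4 mice, 298 sets of values were looked at for 1 mouse far from the other 3, and 24 were found. Chance gives about 1 in 20. Treated mouse 2 stood out for *Mmp13* (291 CPM), *Col12a1* (598 CPM) and the summed markers of osteoblasts and osteocytes (951 CPM), osteoclasts (184 CPM) and cartilage (184 CPM), and less for *Ypel2* (8.52 CPM, others 6.18 to 6.36). Treated mouse 3 was highest for *Flrt1* (104 CPM) and *B230217O12Rik* (17.6 CPM) and lowest for *Dnajb9* (22.6 CPM). Treated mouse 4 was highest for *Myh8* (65.6 CPM), *Atp5l* (13.1 CPM), *Eif4ebp1* (78.7 CPM) and the summed markers of neutrophils and marrow (16.3 CPM). Treated mouse 1 was lowest for *Cry2* (30.3 CPM) and had the highest share of counts outside genes (6.91%).

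Among WT mice, mouse 5 was highest for *Arntl* (43.8 CPM), *Acss2* (71.1 CPM), *Zfp180* (27.9 CPM), *Trak2* (197 CPM) and the *Myh7* share (0.0536%), and lowest for the summed markers of adipocytes (1881 CPM, others 4200 to 4441). WT mouse 6 was highest for *Fbp2* (46.4 CPM), mouse 7 lowest for the mitochondrial share (7.86%) and mouse 8 lowest for *Dapp1* (7.80 CPM).

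The effect in treated *Bin1* mck-/- mice differed from that in tamoxifen-treated *Dnm2* S619L/+ mice for 216 genes and from that in tamoxifen-treated WT mice for 155 (edgeR's quasi-likelihood test of the difference). Against *Dnm2* S619L/+ mice the difference in log2 fold change was −4.04 for *Bin1*, 5.20 for *Gm44577*, 1.47 for *Trub1*, −2.11 for *Kif1a*, −0.96 for *Itga3*, 1.49 for *Fbp2*, 1.76 for *Spns2*, −1.76 for *Ypel2*, 1.45 for *Tmem266*, 2.42 for *B230217O12Rik*, 0.76 for *Eif2b3*, 3.43 for *Actr3b*, 1.0 for *Fam160b1* and 0.83 for *Dnajb9*. Outside the 126 genes it was −1.07 for *Gpc4*, −6.97 for *Igfbp2* and −1.65 for *Fosl2*. Against WT mice on tamoxifen it was −3.42 for *Bin1*, 5.31 for *Gm44577*, 2.12 for *Sbk2*, 1.17 for *Acss1*, −2.03 for *Kif1a*, 2.81 for *Rrad*, 2.07 for *1110046J04Rik*, 1.52 for *Odc1*, 1.10 for *D830050J10Rik* and −0.83 for *Itga3*. Outside the 126 genes it was −1.66 for *Fosl2*, 1.11 for *Timm10* and 3.09 for *Snai3*. No reads of *Igfbp2* in treated mice 3 and 4 make its value uncertain. *Bin1* is the deleted gene, and *Gm44577* passed the filter on low counts through *Bin1* mck-/- mice alone.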

How the results depend on the processing

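The 126 genes called became 519 with DESeq2 and 210 with no filter on low counts. With other settings on all 12 mice, the replicate block apart, the count was 112 to 138. With only the 8 mice compared it was 120, of which 83 were among the 126. Leaving out 1 mouse gave 42 to 266 genes. A replicate block over the numbers 1 to 4 that treated and untreated *Bin1* mck-/- mice share, with WT mice outside it, gave 292, of which 123 were among the 126. Replicate numbers do not mark a shared animal or day, and deviations of mice with the same number correlated by −0.04, −0.05, 0.15 and −0.18 within the cohort, so the numbers do not pair the mice. Of the 126, 26 were called under all 20 alternatives and 31 in all 12 leave-one-out fits, and 0 changed sign. Among other named genes only *Gpc4*, which was not called, changed sign (0.019 without treated mouse 4, 0.016 without WT mouse 5 and 0.0045 without WT mouse 8, over a range of −0.13 to 0.019).

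The difference from tamoxifen-treated *Dnm2* S619L/+ mice (216 genes) was 806 with DESeq2 and 85 with no filter, and 35 to 1187 when 1 mouse was left out. That from tamoxifen-treated WT mice (155) was 1133 with DESeq2, 36 with no filter and 288 with library sizes without mitochondrial genes, and 2 to 1661 when 1 mouse was left out. The share of the tested called genes also called with tamoxifen in WT mice (56.9%) stayed within 1.5 times of itself under the alternatives, which were chosen after seeing the data. The lower level of *Myh2* reached an exact p of 0.0286 as CPM (−3824) and as a share without WT mouse 7 (−9.88 percentage points; range over mice left out −9.88 to −5.08). The difference in the *Myh4* share, 1.82, changed sign without treated mouse 3 (−0.90) and without WT mouse 5 (−1.0; range −1.0 to 5.75). The causes were not tested. The 4 mice a group limit which changes can be called.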
